A study of Homo sapiens with 2 samples.

Results

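The genes described here encode 9 surface proteins of B cells, other than CD20, that are used or proposed as targets of antibodies: CD22, CD37, CD38, CD52, CD47, CD27, CD70, CD80 and CD86. They were chosen by name and not by a rule on their values, though with earlier results of these data known. Each had 1 row among the 37122 rows of the count table. RNA-seq compared 2 cell lines. Ramos is an established human cell line from a Burkitt's lymphoma (BL), and Ramos640 was derived from it by growth in rising rituximab concentrations with normal human serum (NHS), the source of complement, to resist complement-dependent cytotoxicity (CDC) by this CD20 antibody. Ramos640 cells were kept resistant with rituximab and 20% NHS given every 21 days; the labels write the dose as 640 mg/mL, whereas the methods of the study write the same figure in μg/mL. The methods of the study give a medium with serum and antibiotics for Ramos, and name no other medium for Ramos640. RNA from 3 passages of each line was pooled into 1 library, so that no difference below has a replicate check, and the selection, the culture history and the library preparation cannot be told apart. Whether Ramos640 is a clone is not given in the sources used here, and fewer cells with a transcript cannot be told apart from less of it per cell.

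Some antibodies against such antigens kill a B cell by complement, by phagocytes and natural killer cells, or by a toxin that they carry. Each of these routes needs the antigen on the membrane. CD22, a sialic acid-binding lectin of the Siglec family, dampens B-cell receptor signals through tyrosine motifs in its tail, and CD37 is a tetraspanin of mature B cells. CD38 consumes NAD, CD52 is a short glycopeptide on a GPI anchor, and CD47 restrains phagocytes through their receptor SIRPα. CD27 and CD70 are a receptor and its ligand in the TNF families, while CD80 and CD86 are the B7 ligands of CD28 and CTLA-4 on T cells. Only RNA was measured here, so that these values say nothing of the protein on the membrane.

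A pair of these targets is shown by the sequence that gives them their role, since CD52 and CD22 held the most reads of the 9 genes. The whole coding sequence of CD52 has 61 codons and a stop (transcript CD52-201 of GENCODE v44lift37, GRCh37, chr1:26644509-26646793, plus strand, across 2 coding exons). Capitals mark the 12 codons, from codon 25, of the mature peptide that remains at the cell surface after the signal peptide and the GPI attachment signal are removed.

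CD52: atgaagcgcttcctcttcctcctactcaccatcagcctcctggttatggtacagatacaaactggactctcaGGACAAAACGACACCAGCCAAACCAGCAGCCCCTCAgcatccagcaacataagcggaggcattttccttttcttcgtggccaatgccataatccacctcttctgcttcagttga

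The tail of CD22 is shown from codon 749 of its 847 codons to the stop (transcript CD22-201, chr19:35836541-35837600, plus strand, introns left out). Capitals mark the 4 stretches of 6 codons that encode a tyrosine motif with I, V, L or S before it and L, V or I after it, the form of the inhibitory motifs that recruit the phosphatase SHP-1.

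CD22: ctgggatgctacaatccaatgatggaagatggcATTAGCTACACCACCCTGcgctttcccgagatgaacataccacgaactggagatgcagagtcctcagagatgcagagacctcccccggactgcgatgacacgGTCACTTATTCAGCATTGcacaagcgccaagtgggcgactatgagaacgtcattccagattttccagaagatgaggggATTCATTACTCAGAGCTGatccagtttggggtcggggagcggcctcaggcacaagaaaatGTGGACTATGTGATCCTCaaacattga

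Ramos had 38030090 reads in all and Ramos640 had 30871826. Counts were scaled by median-of-ratios size factors of 1.14 and 0.876, and log2 fold changes are given as Ramos640 over Ramos after adding 1 to each scaled count. Intervals are exact (Clopper-Pearson for fold changes, Poisson for levels) at 95% and cover counting error only. A gene was called higher or lower when its fold change was above 1.5 in either direction and its interval excluded 0. The fold is that of the study, which also set a limit on the false discovery rate. That limit was not applied here, so that the calls are not those of the study. A minimum of 10 reads, both libraries summed, was met by 18778 genes. Levels of different genes are compared only as reads per kilobase of exon and 1000000 reads of the library (RPKM). Levels in RPKM, and in counts per 1000000 reads (CPM), are scaled to the library totals, and fold changes to the size factors, so that a ratio of levels differs slightly from the fold change. Both libraries carried the defining B-cell transcripts CD79A and CD79B, and 7 of 8 B-cell markers had at least 10 reads, BANK1 being at 0 reads in both libraries. The 7 T-cell markers summed to 0.447 CPM in Ramos and 1.65 in Ramos640, with CD3D, CD2, CD8A and CD8B at 0 in both and CD3E at 1 and 31 reads. The 8 monocyte and dendritic cell markers summed to 0.526 and 0.648 CPM, with LYZ at 0 and 1 reads, and the 5 NK-cell markers to 0.368 and 0.421 CPM. What part such reads have in the levels of antigens that those cells also carry was not tested.

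All 9 antigen genes had at least 10 reads and so passed the filter on low counts. Of these, 3 were called higher in Ramos640, namely CD70, CD27 and CD37, 2 were called lower, namely CD86 and CD47, and 4 were not called, namely CD22, CD38, CD52 and CD80. Of all 18778 genes tested, 11.4% were called higher and 13.7% lower, and the 3 of 9 and 2 of 9 above stand over these shares on few genes. The median log2 difference of the 9 antigen genes was 0.29, against -0.015 over all 18778 genes. The shares of 11.4% and 13.7% are also the background for the counts called in each list below. The calls of CD37 and CD47 were close to the fold criterion, as their values below show, while those of CD70, CD27 and CD86 as counted were not. Relative to genes of like GC content, CD27 came closer to the criterion, at a log2 fold change of 0.65.

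**Figure D1:**
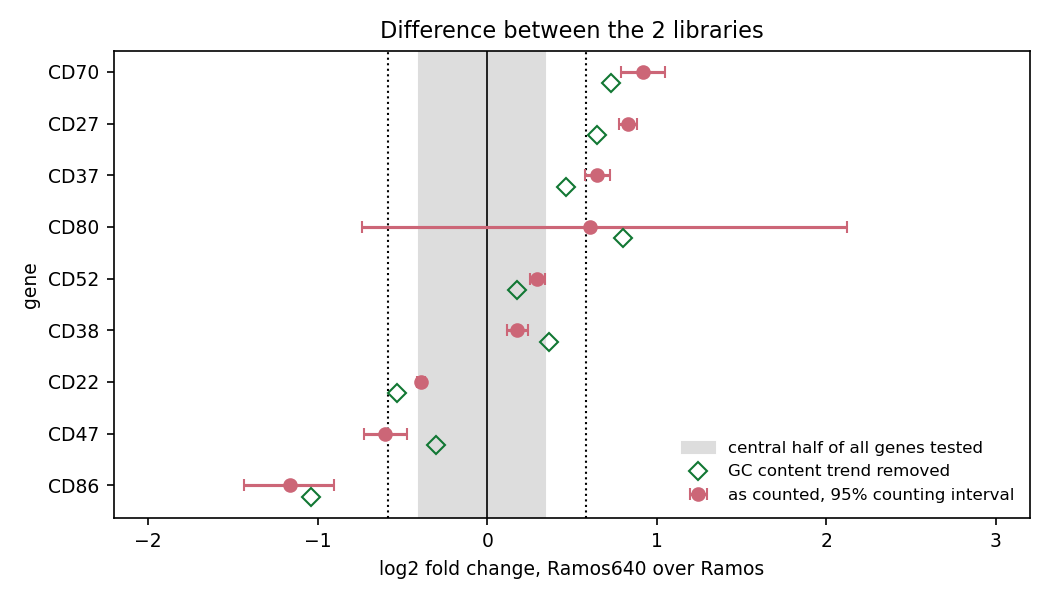
Log2 fold change of Ramos640 over Ramos for the 9 genes (filled circles, bars are 95% counting intervals, 1 library per line), and the same relative to the median of genes of like GC content (open diamonds). The grey band spans the quartiles of all genes tested (-0.40 to 0.34) and the dotted lines mark a fold of 1.5. CD70, CD27 and CD86 stay outside the dotted lines by either measure, while CD37 and CD47 do not. CD80 also lies outside them by either measure, but its interval spans 0 and it was not called.

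The genes differed in level by more than 3 orders of magnitude. Per length, CD52 led in both libraries, at 235 RPKM in Ramos and 273 RPKM in Ramos640, above 98.3% and 98.5% of the 15752 genes tested whose length was known. CD22 followed in Ramos with 165 RPKM (interval from 164 to 167), and CD27 was at 95.6 RPKM (92.9 to 98.4). In Ramos640 this order was turned, with CD27 at 161 RPKM (157 to 165) and CD22 at 119 RPKM (118 to 121). With the length of the longest transcript in place of all exons CD22 stayed ahead of CD27 in Ramos640, at 225 against 171, so that the order of these genes depends on the transcripts that the cells use. CD37, CD38 and CD70 formed a middle group, from 14.1 to 18.5 RPKM in Ramos and from 17.8 to 27.5 RPKM in Ramos640. CD47 and CD86 were near the middle of all genes in Ramos, above 55.9% and 49.3% of them, and lower down in Ramos640, above 47.8% and 35.1%. CD80 was at the bottom, with 0.0737 and 0.111 RPKM. Within the middle group the intervals of neighbouring genes were apart in Ramos, whereas those of CD37 and CD70 overlapped in Ramos640 (26.6 to 28.4 and 23.8 to 26.6 RPKM, meeting at the rounded limit). The order of CD38 and CD70 in Ramos and of CD37 and CD70 in Ramos640 changed with the choice of length.

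**Figure D2:**
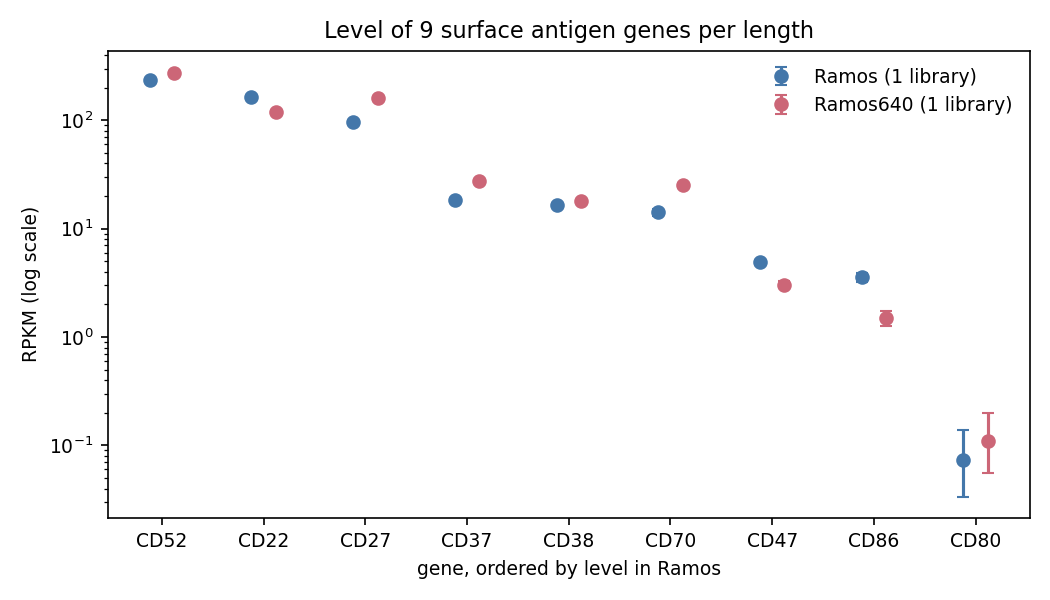
Level in RPKM (log scale) of the 9 genes in the Ramos (blue) and Ramos640 (red) libraries, ordered by the level in Ramos, with exact Poisson intervals at 95% that are mostly smaller than the symbols. CD52, CD22 and CD27 lie between 95.6 and 273 RPKM in both libraries, and CD80 lies near 0.1 RPKM.

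Among the inhibitory and adhesion targets, CD22 (chromosome 19 of GRCh37, from 35810164 to 35838264) had 38776 reads in Ramos and 22738 in Ramos640. The levels were 1020 and 737 CPM. The RNA was thus 1.31-fold lower after scaling (log2 fold change -0.39, interval from -0.41 to -0.37). The difference was larger than counting error but smaller than the fold criterion. CD22 alone held 62.5% of the reads of the 9 genes in Ramos (exact interval from 62.1% to 62.9%) and 48.8% in Ramos640 (48.3% to 49.2%). These shares of reads are not corrected for gene length. Per length, CD22 made up 29.9% of the summed RPKM of the 9 genes in Ramos and 19.0% in Ramos640, and CD52 made up 42.5% and 43.4%. Of its 11 listed signalling partners, all of them with at least 10 reads, 2 were called higher and 1 lower, with a median log2 fold change of 0.093. LYN, the kinase that phosphorylates the CD22 tail, had 9716 and 5018 reads (-0.57, interval from -0.62 to -0.52), just short of the criterion, and was called lower with scaling to total counts. PTPN6, which encodes SHP-1, had 432 and 454 reads (0.45), and ST6GAL1, which makes the sialic acid linkage that CD22 binds, had 17221 and 13579 reads (0.038). These values show no common direction for the lectin, its kinase, its phosphatase and its ligand-making enzyme. ATP2B4, a calcium pump that CD22 can recruit, was called higher (159 and 251 reads, log2 fold change 1.03), as was CD79B, a signalling chain of the B-cell receptor (69495 and 82890, 0.64). The call of CD79B was lost with scaling to total counts and with the GC trend removed (0.45). CR2, the complement receptor CD21, was called lower, with 1226 and 83 reads (-3.49, interval from -3.84 to -3.18).

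Of the 14 other Siglec genes, 3 had at least 10 reads. SIGLEC10, an inhibitory Siglec that can bind CD52, was called lower, with 1030 reads in Ramos and 455 in Ramos640 (-0.80, interval from -0.96 to -0.64). MAG, whose gene is next to CD22, was called higher with 128 and 150 reads (0.61), and CD33 was called higher on 3 and 14 reads. The call of MAG was lost with scaling to total counts and with the GC trend removed (0.39).

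CD37 (chromosome 19, from 49838428 to 49846592) had 2927 reads in Ramos and 3528 in Ramos640, although the Ramos640 library was the smaller of the pair. Its level was 77.0 and 114 CPM, and it was 1.57-fold higher after scaling (log2 fold change 0.65, interval from 0.58 to 0.72). Scaled to total counts it was 0.57 and no longer past the criterion. Among 32 other tetraspanin genes, 17 had at least 10 reads, and none was called higher while 5 were called lower. CD53, a tetraspanin of leukocytes, had 12416 and 4318 reads (-1.14), CD82 had 530 and 226 (-0.85) and TSPAN13 had 541 and 128 (-1.69). The other 2, TSPAN9 with 46 and 7 reads and TSPAN16 with 22 and 1, rest on few reads. CD81, a widely expressed tetraspanin, had 11170 and 9659 reads (0.17) and was not called. The median over the 17 genes was 0.0017.

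CD38 (chromosome 4, from 15779898 to 15854855) had 4348 reads in Ramos and 3775 in Ramos640, which is 114 and 122 CPM. The log2 fold change was 0.18 (interval from 0.11 to 0.24), and the fold of 1.13 was far from the criterion. BST1, its neighbour and relative that encodes the NAD-consuming GPI-anchored protein CD157, went the other way with 86 and 12 reads (-2.38, interval from -3.47 to -1.58). BST1 was the only gene called among the 13 NAD-related genes with at least 10 reads, out of 18 listed, whose median was -0.046. NAMPT, the rate-limiting enzyme of NAD salvage, had 3046 and 2442 reads (0.062, interval from -0.015 to 0.14).

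CD52 (chromosome 1, from 26644449 to 26647014), the target of alemtuzumab, had 8354 reads in Ramos and 7868 in Ramos640. Its level was 220 and 255 CPM, and it was 1.23-fold higher after scaling (log2 fold change 0.29, interval from 0.25 to 0.34), below the criterion. Of 12 listed genes for other GPI-anchored proteins of leukocytes, CD24 was not analysed here and 8 had at least 10 reads. None of them was called higher and 2 were called lower, the prion protein gene PRNP (66 and 31 reads, -0.69) and SEMA7A (11 and 1 reads), with a median of 0.19. The complement regulators CD55 and CD59 had log2 fold changes of -0.065 and 0.37.

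CD47 (chromosome 3, from 107761938 to 107810709) had 1527 reads in Ramos and 773 in Ramos640, and was 1.52-fold lower (log2 fold change -0.60, interval from -0.73 to -0.48). This was past the criterion by little, and with upper-quartile scaling (-0.56) or with the GC trend removed (-0.30) CD47 was not called. SIRPA, the gene of its receptor on phagocytes, had 0 and 4 reads, and SIRPB1 and SIRPG had none in either library, where 0 reads allow up to 0.0789 CPM in Ramos and 0.0972 CPM in Ramos640. QPCTL, the enzyme that modifies the amino terminus of CD47 for SIRPα binding, had 1010 and 841 reads (0.12, interval from -0.017 to 0.25). CALR, which encodes the chaperone calreticulin, a signal for uptake by phagocytes when exposed at the surface, was called higher with 38066 and 58543 reads (1.00, interval from 0.98 to 1.02). BNIP3, a death factor that can bind CD47 (1692 and 744 reads, -0.80), and LRP1, the calreticulin receptor (63 and 20, -1.24), were called lower. Of the 10 listed genes of this axis, 7 had at least 10 reads, 1 was called higher and 2 lower, and the median was -0.38.

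The receptor CD27 (chromosome 12, from 6554121 to 6560884) and its ligand CD70 (chromosome 19, from 6583194 to 6604114) were both called higher. CD27 had 4808 reads in Ramos and 6561 in Ramos640, or 126 and 213 CPM, with a log2 fold change of 0.83 (interval from 0.78 to 0.88). CD70 had 820 and 1189 reads, or 21.6 and 38.5 CPM, with a log2 fold change of 0.92 (interval from 0.79 to 1.05). Receptor and ligand thus differed by similar factors, 1.78-fold and 1.89-fold, and per length there was 6.79 times as much CD27 as CD70 RNA in Ramos (interval from 6.30 to 7.32) and 6.39 times in Ramos640 (6.0 to 6.80). The intervals of these ratios overlap. Of the 16 genes for the signalling of this pair and for related TNF family pairs, 9 had at least 10 reads, and the single one called was CD40, the receptor for T-cell help, which was higher (2035 and 2425 reads, 0.63, interval from 0.55 to 0.72). CD40 was not called when scaled to total counts. The adaptors of CD27 had log2 fold changes of 0.53 for TRAF2 (1110 and 1234 reads) and -0.26 for TRAF5 (1577 and 1011 reads), and SIVA1, a protein that binds the CD27 tail, had 0.20. The median over the 9 genes was 0.13.

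CD86 (chromosome 3, from 121774209 to 121839986) differed most of the 9 genes. The Ramos library held 465 of its reads and the Ramos640 library 159, or 12.2 and 5.15 CPM, and was 2.24-fold lower with a log2 fold change of -1.16 (interval from -1.44 to -0.90). It was the only one of the 9 called at a fold of 2. CD80 (chromosome 3, from 119243140 to 119278461) had 9 reads in Ramos and 11 in Ramos640, and its interval from -0.74 to 2.12 shows that no difference was detectable at this depth. CD86 thus exceeded CD80 48.3 times per length in Ramos (interval from 25.2 to 106) and 13.5 times in Ramos640 (7.35 to 27.6), and these intervals overlap. CD28, a receptor of both ligands that T cells carry, had 43 and 14 reads and was called lower (-1.19, interval from -2.22 to -0.34), while CTLA4 had none in either library. CD274, the gene of PD-L1, had 9 and 11 reads like CD80. ICOSLG, another B7 gene, had 733 and 676 reads (0.26). Of the 12 genes of the B7 family and its receptors, 6 had at least 10 reads, CD28 was the single one called, and the median was 0.27.

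Beyond these, 28 other genes of B-cell surface proteins were listed, 25 of them with at least 10 reads, and 7 were called higher and 9 lower (median -0.11), or 4 and 9 when scaled to total counts. MS4A1, which encodes CD20, had 9654 reads in Ramos and 1904 in Ramos640, and its log2 fold change of -1.96 (interval from -2.03 to -1.89) was larger in size than that of any of the 9 genes. CD180 (1867 and 237 reads, -2.59), a Toll-like receptor homologue of B cells, was also called lower, as was CD200 (51 and 1 reads, log2 interval from -10.6 to -2.75). SLAMF7, the target of elotuzumab, was called higher with 21 and 426 reads (4.65, interval from 4.09 to 5.43), as were FCER2, the low-affinity IgE receptor CD23 (20 and 90 reads, 2.48), and SEMA4D (676 and 932 reads, 0.84).

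**Figure D3:**
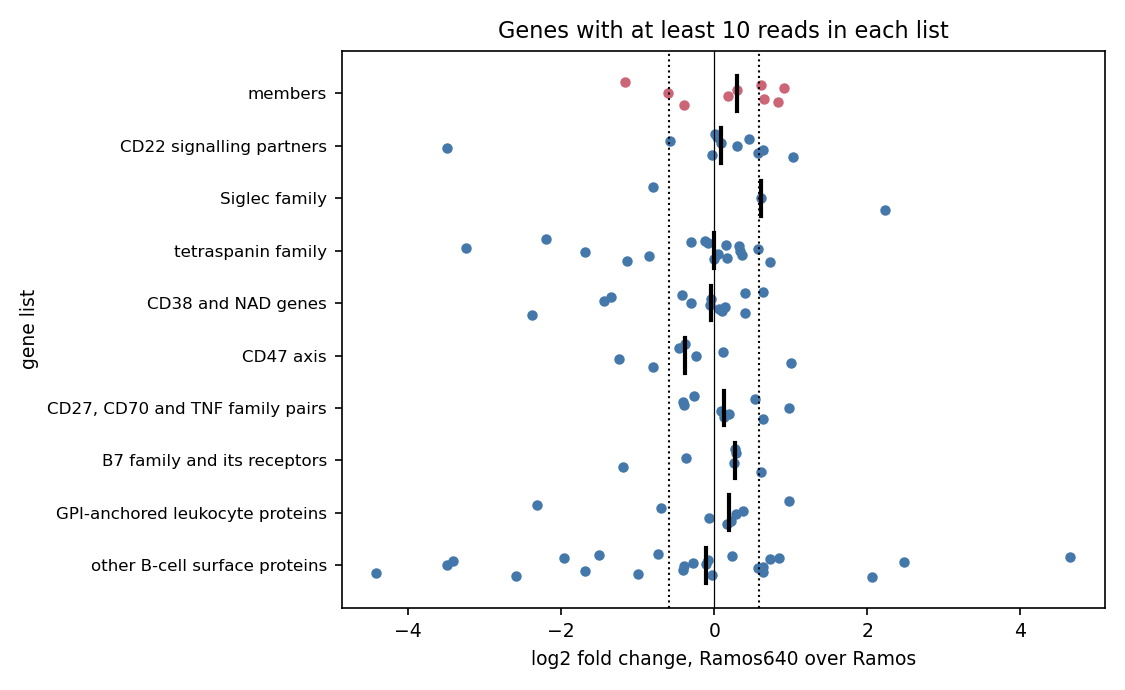
Log2 fold change of Ramos640 over Ramos for each gene with at least 10 reads in the 9 antigen genes (red) and the 9 related lists (blue), with the median of each list as a black bar and a fold of 1.5 as dotted lines. The 9 antigens lie between -1.16 and 0.92, while the other B-cell surface genes reach from -4.42 for CD200 to 4.65 for SLAMF7.

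The GC content of the transcripts, which the choice of genes did not use, moved with the fold changes of all genes, and some of the 9 antigens followed this trend while others did not. Over 10220 protein-coding genes that reached 100 reads, GC-richer transcripts had the higher log2 fold changes (Spearman's rho = 0.419 across genes of the same 2 libraries, which are not independent replicates). The 3 antigens called higher had the most GC-rich transcripts of the 9, from 58.5% for CD37 to 59.9% for CD70, and CD47, called lower, had the least GC-rich, 38.4%. CD86 had 43.4%. The genes not called went against the trend in part, with 42.3% GC and a log2 fold change of 0.18 for CD38, and 55.1% and -0.39 for CD22, while CD52 had 52.0% and 0.29. CD80 had 42.2% and 0.61, but its interval from -0.74 to 2.12 includes the running median of -0.19 at its GC content. At the GC content of each gene the running median of all genes was 0.19 for CD37, 0.18 for CD27, 0.19 for CD70, -0.30 for CD47 and -0.13 for CD86. Taken relative to it, the log2 fold changes were 0.65 for CD27, 0.73 for CD70 and -1.04 for CD86, still past the criterion, and 0.46 for CD37 and -0.30 for CD47, no longer past it. CD22 lay at -0.53, CD38 at 0.36 and CD80 at 0.80 relative to this median, farther from 0 than as counted, though CD80 rests on 9 and 11 reads, and CD52 at 0.17. Whether the trend arose in the cells or in the libraries was not tested.

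**Figure D4:**
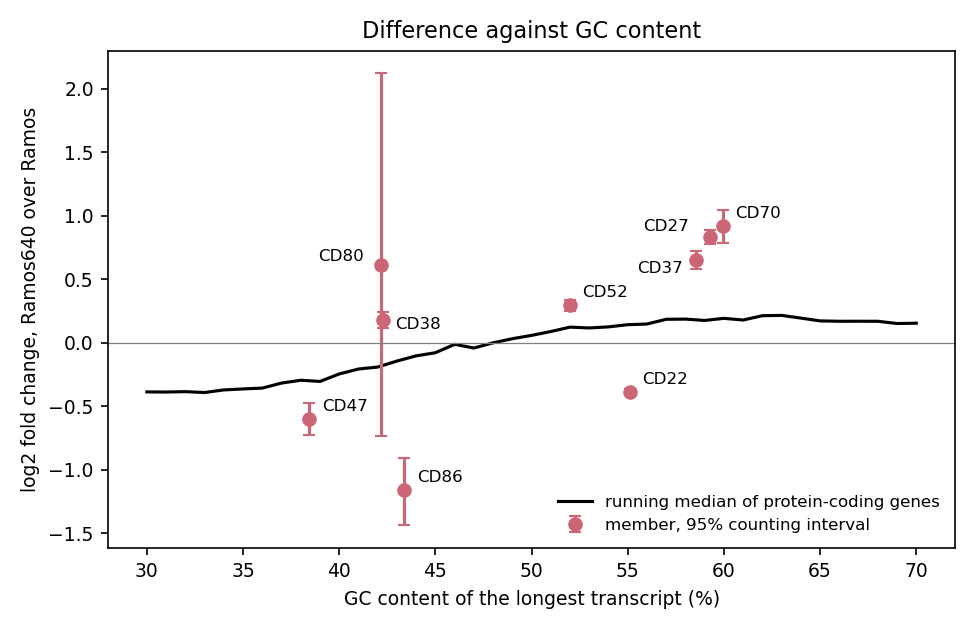
Log2 fold change of the 9 genes (red, bars are 95% counting intervals) against the GC content of the longest transcript, with the running median over protein-coding genes as a black line. CD27, CD37 and CD70 lie above the line at 58.5% to 59.9% GC, CD86 and CD22 lie well below it, and CD47 lies below it at 38.4%.

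The start sites gave another view of GC content. RefSeq promoter sequences of 300 bases (250 before the start and 50 after it) were matched for 7 of the 9 genes, and the median over 27305 promoters was 58.3% GC with 14 CpG. The 2 genes called lower are shown, since they stand near opposite ends of this range in GC content. CD47 has a start region with 79% GC and 45 CpG, more CpG than 96.6% of promoters. CD86 has one with 37% GC and 3 CpG, above 6.85% of promoters in GC and 19% in CpG. CD27, called higher, also has 3 CpG, with 48% GC, though its sequence had no exact match in GRCh37. Both sequences shown were found once, without a mismatch, in GRCh37 (CD47 at chr3:107809829-107810128 on the minus strand, CD86 at chr3:121773959-121774258 on the plus strand). Capitals mark each CpG.

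CD47: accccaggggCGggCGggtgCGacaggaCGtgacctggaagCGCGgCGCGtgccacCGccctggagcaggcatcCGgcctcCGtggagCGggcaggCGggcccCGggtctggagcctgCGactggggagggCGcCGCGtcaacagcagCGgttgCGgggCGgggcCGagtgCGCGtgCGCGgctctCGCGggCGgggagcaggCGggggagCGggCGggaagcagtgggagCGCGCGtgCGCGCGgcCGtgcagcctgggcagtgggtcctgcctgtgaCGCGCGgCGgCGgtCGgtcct

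CD86: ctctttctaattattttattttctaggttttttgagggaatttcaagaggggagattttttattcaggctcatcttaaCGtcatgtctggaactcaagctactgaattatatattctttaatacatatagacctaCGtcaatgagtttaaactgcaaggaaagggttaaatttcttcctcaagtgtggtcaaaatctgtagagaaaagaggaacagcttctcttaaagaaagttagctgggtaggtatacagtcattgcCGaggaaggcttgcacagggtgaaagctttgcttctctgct

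Neighbouring genes on the chromosome gave the setting of each difference. For each antigen gene the 5 nearest protein-coding genes on either side with at least 100 reads were taken. These sets differed in extent, from 0.525 megabases (Mb) for CD37 to 1.98 Mb for CD27, with 4.45 Mb for CD38 and 10.4 Mb for CD47. The neighbours of CD47 are thus spread over the widest stretch. All 10 neighbours of CD47 were lower in Ramos640, from -1.02 for IFT57 to -0.24 for BBX, with a median of -0.37 and 3 of them called. The log2 fold change of CD47 lay within this range. Of the 10 neighbours of CD86, 9 were lower and 5 were called lower, with a median of -0.43, and SLC15A2 (-1.14) and PARP14 (-1.32) were about as low as CD86 itself. EAF2, another of the 10, had 2422 and 1154 reads (-0.69). The neighbours of CD80, which lies between CD47 and CD86 on chromosome 3, had a median of 0.12. By contrast, CD37, CD27 and CD70 were each higher than all of their 10 neighbours, whose medians were 0.13, 0.12 and 0.10. CD22 was lower than 9 of its 10 neighbours, which had a median of 0.24.

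**Figure D5:**
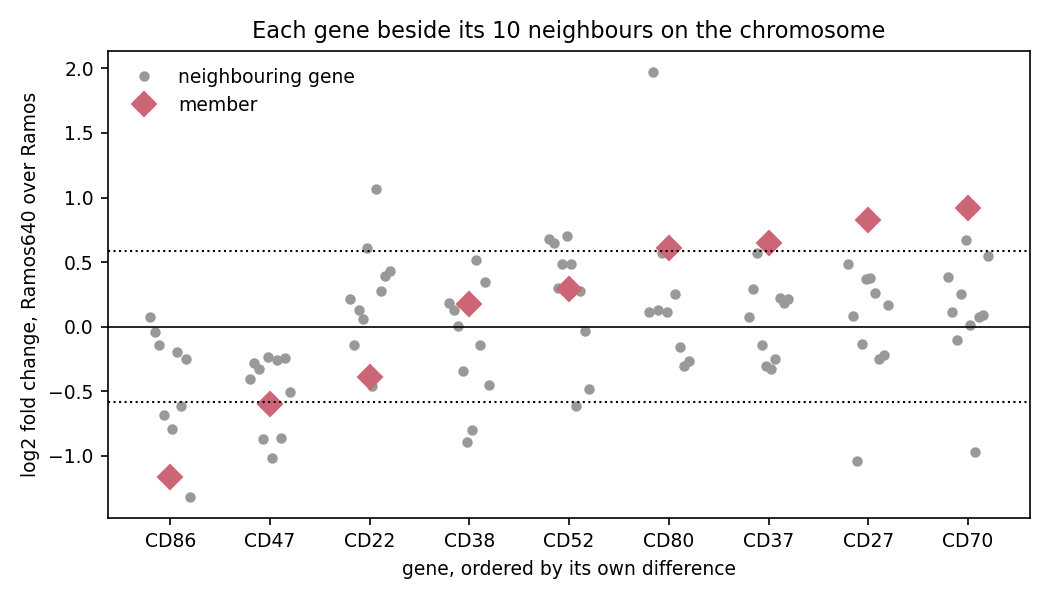
Log2 fold change of Ramos640 over Ramos for each of the 9 genes (red diamond) and the 10 nearest protein-coding genes with at least 100 reads (grey, left to right in chromosome order), with a fold of 1.5 as dotted lines. All grey points beside CD47 lie below 0, and the diamonds of CD37, CD27 and CD70 lie above all of theirs.

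Some reads could belong to overlapping genes, because the use of strand in counting is not given in the sources used here. CD27 shares 562 exonic bases with CD27-AS1 on the opposite strand, which had 666 and 754 reads (0.56, interval from 0.41 to 0.71), in the direction of CD27 itself. CD80 shares 798 exonic bases with TIMMDC1, which had 1441 and 1195 reads, far more than the 9 and 11 reads of CD80. CD37 shares 319 exonic bases with TEAD2, which had 87 and 53 reads. CD52 shares 25 exonic bases with UBXN11 (1413 and 1766 reads). No overlap with another gene was annotated for CD38, CD47 or CD86.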

How the data were processed

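RNA was measured in 1 library each of Ramos and Ramos640 cells, mapped to their columns by title. The authors removed adaptor sequences from Ion Proton reads, aligned them to GRCh37 with MapSplice, and deposited whole-number read counts per gene without normalization. The counting program, its annotation, its use of strand and its handling of reads with several positions are not given in the sources used here. The table holds no column of another sample. With 1 library per line no dispersion can be estimated, so no test was run and no p-value is given; a fold of 1.5 with a counting interval that excluded 0 took its place. A count of 0 allows up to 3 reads.

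Gene positions, exon lengths, transcripts and GC content came from GENCODE v44lift37 on GRCh37. Current symbols placed 26511 gene names and former symbols 2302, which covered 83.9% of the 18778 genes with at least 10 reads. The GC trend was a running median over 501 genes. TMM factors came from edgeR 4.0.16 in R 4.3.3, and all else from Python 3.11.15 with scipy 1.17.1. The calls and intervals were tested on simulated counts with counting error only and with planted differences well past the fold criterion. Variation between cultures was not simulated, so that this says nothing of how the calls stand against it. Promoter sequences are those of RefSeq.

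The 9 genes, 9 related lists and 6 marker lists were chosen with earlier results of these data known. The genes named are the 9 antigens, their direct partners or relatives, genes that overlap or flank them, and per list at most 4 called rises and 4 called falls with 50 reads or more in the higher library. Other genes (CD33, TSPAN9, TSPAN16, SEMA7A, NAMPT, QPCTL, SIRPB1, SIRPG, ICOSLG, CD55, CD59, BANK1 and the T-cell, monocyte, B-cell and stage markers with values) were named after their values were seen. The alternatives were TMM, total-count and upper-quartile scaling, pseudocounts of 0.1 and 10, removal of the GC trend, minimums of 1 and 100 reads, a fold of 2, and the longest transcript as length. One of the partner genes is not reported here.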

Additional observations from a re-analysis of the deposited data

How the results depend on the processing

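Of the 9 antigens, 3 were called higher and 2 lower. The direction of each of the 9 log2 fold changes was kept under all 6 alternatives for scaling, pseudocount and GC trend, with CD86 between -1.24 and -1.04, CD47 between -0.68 and -0.30, CD22 between -0.53 and -0.35, CD38 between 0.097 and 0.36, CD52 between 0.17 and 0.34, CD37 between 0.46 and 0.69, CD80 between 0.33 and 0.80, CD27 between 0.65 and 0.87 and CD70 between 0.73 and 0.96. Of these 54 values, 13 lay outside the counting interval of the value as reported, all under total counts, upper-quartile scaling or removal of the GC trend. The number called lower was 1 under upper-quartile scaling and 1 with the GC trend removed, where CD47 was lost. With a fold of 2, which by its construction calls fewer genes, 0 antigens were called higher and 1 lower. Total counts and removal of the GC trend each left 2 called higher, without CD37. Across all genes, total counts moved the median log2 fold change to -0.095 and called 9.38% higher and 16.5% lower. At a minimum of 100 reads CD80 was not tested. Of 162 counts for the related lists, 25 moved by over 1.5 times, and of 18 ranks by level 6 moved with the longest transcript as length. For no other change was the cause tested. No paired analysis was possible because each line has 1 library. Depth limits CD80 above all, and counting intervals leave out all variation between cultures.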

Other observations

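The lists of markers for stages of B-cell life, which belong to no comparison above, showed these values. Of 7 germinal centre markers, all with at least 10 reads, none was called higher and 4 were called lower in Ramos640, and all 7 had a negative log2 fold change (median -0.63). Over all genes tested, 11.4% were called higher and 13.7% lower. MME, the surface protease CD10, had 12005 reads in Ramos and 4880 in Ramos640 (-0.92), LMO2 had 1138 and 347 (-1.33), RGS13 had 12457 and 5559 (-0.78) and MYBL1 had 6543 and 3243 (-0.63). BCL6, the master repressor of the germinal centre, had 10949 and 6530 reads (-0.36, interval from -0.41 to -0.32) and was not called. Taken relative to the GC trend, MYBL1 (-0.31) and RGS13 (-0.42) were no longer past a fold of 1.5. Of 5 plasma cell markers, 4 had at least 10 reads, and PRDM1 alone was called higher, on 16 and 31 reads. JCHAIN (54737 and 52500 reads, 0.32) was not called as counted, but at 0.68 relative to the GC trend it was past a fold of 1.5. Of the 8 B-cell markers, CD79B was called higher and PAX5 (4624 and 2039 reads, -0.80) and MS4A1 lower, and CD79B (0.45) was no longer past a fold of 1.5 relative to the GC trend.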
